A study of Mus musculus with 10 samples.

Results

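The matrix scaffold of the heart was examined through 37 genes among the 45882 gene IDs listed: 17 collagen chains, 6 laminin chains, 4 basement membrane linkers and proteoglycans, 6 genes of fibronectin and the elastic fibre, and 4 lysyl oxidases. They were grouped by the known role of their proteins, and the list was drawn up with earlier results of these data known. Levels came from RNA sequencing of left ventricular myocytes prepared from C57BL/6 mice. The 10 libraries came from 4 CTCF knockout mice, 3 TAC mice (transverse aortic constriction, an operation that narrows the aorta and so raises the pressure against which the heart works; labelled as diseased hearts) and 3 control mice, each with a mouse number of its own. CTCF is a DNA-binding protein at the anchors of many chromatin loops. The labels call the cells adult. They do not state how Ctcf was deleted, the genotype of the TAC mice, or the time after deletion or surgery. The study set gene expression after loss of CTCF beside that after pressure overload.

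Collagens are secreted proteins that wind into triple helices, and their processing outside the cell lets them assemble. Fibrillar collagens form the fibres of the interstitium, while type IV collagen and laminins form separate sheets that nidogens and perlecan join into the basement membrane around each myocyte and capillary. Fibronectin, fibrillin microfibrils and elastin add further fibres, and lysyl oxidases cross-link collagen and elastin. In the heart, fibroblasts are the main known source of interstitial collagen, endothelial cells and myocytes both contribute to basement membranes, and scar and pressure overload are known for more of this matrix.

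Most of the scaffold genes stood higher in CTCF knockout libraries and in TAC libraries than in control libraries. The level used throughout is FPKM, a number of fragments scaled to transcript length and library depth, summed over the transcripts of a gene. Over the 37 genes together it was 535 to 633 FPKM in knockout, 578 to 691 FPKM in TAC and 278 to 351 FPKM in control libraries. The lowest knockout and TAC libraries lay above the highest control library. In such bulk libraries a change in the number of cells of a type and in RNA per cell cannot be told apart. Of the 35 genes tested, 25 rose in the knockout, 1 fell (Lama5) and 9 were not called, with limma and an adjusted p under 0.05. Over all 11358 genes tested, 10.6% rose and 10.2% fell. In TAC, 26 of the 35 rose, 0 fell, and 9 were not called, against 8.08% rising and 7.37% falling over all genes. No member was lower in TAC at an unadjusted p under 0.05 either. No share over all genes is set beside counts at an unadjusted p, here or below, so these are descriptions only.

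The median log2 fold change of the 35 was 0.92 in the knockout and 0.90 in TAC, while the median of all tested genes was -0.01 and -0.0048. Fold changes are differences of log2(FPKM + 1), which understate the change of genes with low levels. Every knockout library lay above every control library for 26 of the 35, against 14.8% of all genes, and every one lay below for 1, against 16%. In TAC the groups stood apart upward for 25, against 16%, and downward for 0, against 15.7%. Both comparisons share the 3 control libraries. The groups are small, and the number of called members in TAC was 17 without TAC library 1 and 18 without control library 2.

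**Figure D1:**
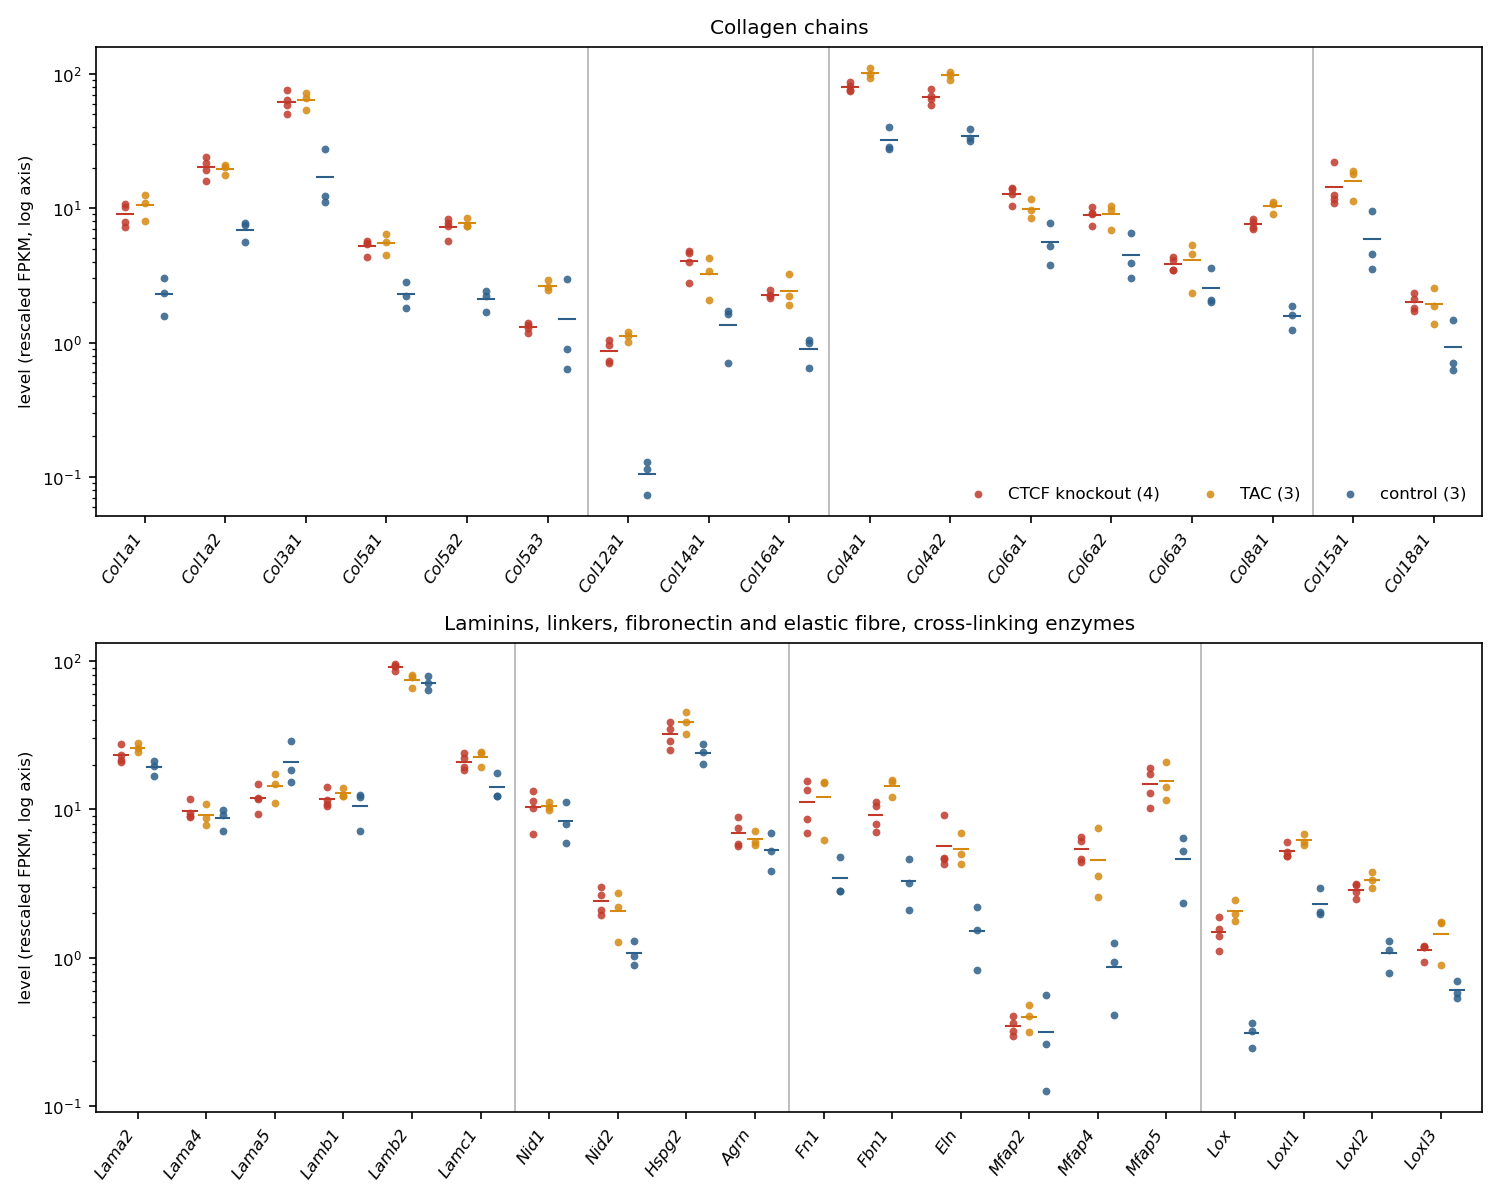
Level of each of the 37 genes in every library (y axis, rescaled FPKM on a log axis), with CTCF knockout (4), TAC (3) and control (3) libraries from left to right; points are libraries and bars are group means. Vertical lines part the roles, and the control libraries lie lowest for most collagens, elastic fibre genes and lysyl oxidases, while the laminin groups lie close together.

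The libraries were checked before single genes were read. Ctcf itself had 2.90, 4.01, 2.60 and 4.42 FPKM in CTCF knockout libraries, 7.32, 5.70 and 5.22 FPKM in TAC libraries and 8.81, 8.34 and 6.80 FPKM in control libraries, so every library labelled as knockout lay below every TAC and control library. It fell in the knockout (log2 fold change -1.02 ± 0.16 SE, adjusted p = 0.00136). Transcripts above 0 numbered 58663 to 64693 a library. The labels give an average of 50000000 raw read pairs, each read 100 bp long, but the depth of a single library is not stated, and the listed coverage for 1 FPKM differed at most 1.56-fold between libraries. Xist and Y-linked genes marked knockout library 4, TAC libraries 1 and 3 and control library 2 as male and the others as female. With sex as a term, 26 members rose in the knockout and 23 in TAC.

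Markers of myocytes were far above those of other cell types, but RNA of other cells was present. The 9 myocyte markers summed to 23302 to 29244 FPKM in knockout, 25450 to 31439 FPKM in TAC and 28792 to 30647 FPKM in control libraries. Of these, 2 rose and 4 fell in the knockout, and 2 rose and 2 fell in TAC. Beside this and the marker lists below, 10.6% of all genes rose and 10.2% fell in the knockout, and 8.08% and 7.37% in TAC. The fibroblast list (9 of its 10 genes are in the files; Dpep1 was not analysed here) summed to 29.2 to 48.5 FPKM in knockout, 36.9 to 48.0 FPKM in TAC and 19.5 to 43.3 FPKM in control libraries, and these ranges overlap. Of its 6 genes tested, Pi16 rose in both comparisons, and the other 5, among them Pdgfra, Dpt and Lum, were not called. Pdgfra had 3.17, 3.21, 2.12 and 3.25 FPKM in CTCF knockout libraries, 3.23, 4.01 and 3.25 FPKM in TAC libraries and 4.55, 2.07 and 3.31 FPKM in control libraries. The activated fibroblast list (5 genes) summed to 44.1 to 54.5 FPKM in knockout, 62.8 to 74.3 FPKM in TAC and 28.6 to 42.6 FPKM in control libraries, with the 3 groups apart. Of its 3 genes tested, the matricellular protein Postn and the transcription factor Meox1 rose in both comparisons and Acta2 fell in both, while Cthrc1 was listed at 0 in some libraries.

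The endothelial list (12 genes) summed to 114 to 193 FPKM in knockout, 135 to 196 FPKM in TAC and 92.8 to 128 FPKM in control libraries, with TAC above control and the knockout overlapping both. Of these 12, 3 rose in the knockout (Emcn, Vwf and Eng) and 0 were called in TAC with limma. At an unadjusted p under 0.05, 6 were higher in the knockout and 6 in TAC, and the median log2 fold change of the list was 0.33 and 0.49. The pericyte and smooth muscle list (8 genes) summed to 44.4 to 61.1 FPKM in knockout, 48.4 to 62.6 FPKM in TAC and 50.3 to 75.4 FPKM in control libraries, and only the pericyte proteoglycan Cspg4, of 7 tested, rose, in both comparisons. The macrophage list (9 genes) summed to 76.3 to 128 FPKM in knockout, 109 to 125 FPKM in TAC and 69.9 to 94.3 FPKM in control libraries, again with TAC above control. Adgre1 rose in the knockout and C1qc in TAC, but at an unadjusted p under 0.05 4 of the 9 were higher in the knockout and 8 in TAC. The TAC libraries lay above the control libraries for 7 of the 9, against 16% of all genes. The median log2 fold change of the list was 0.57 in TAC and 0.34 in the knockout. Sox10, a Schwann cell marker, was too low for testing and was listed at 0 in some libraries. Adipoq, the adipocyte marker, was also listed at 0 in some. The part of other cells in the results on the scaffold genes was not tested.

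**Figure D2:**
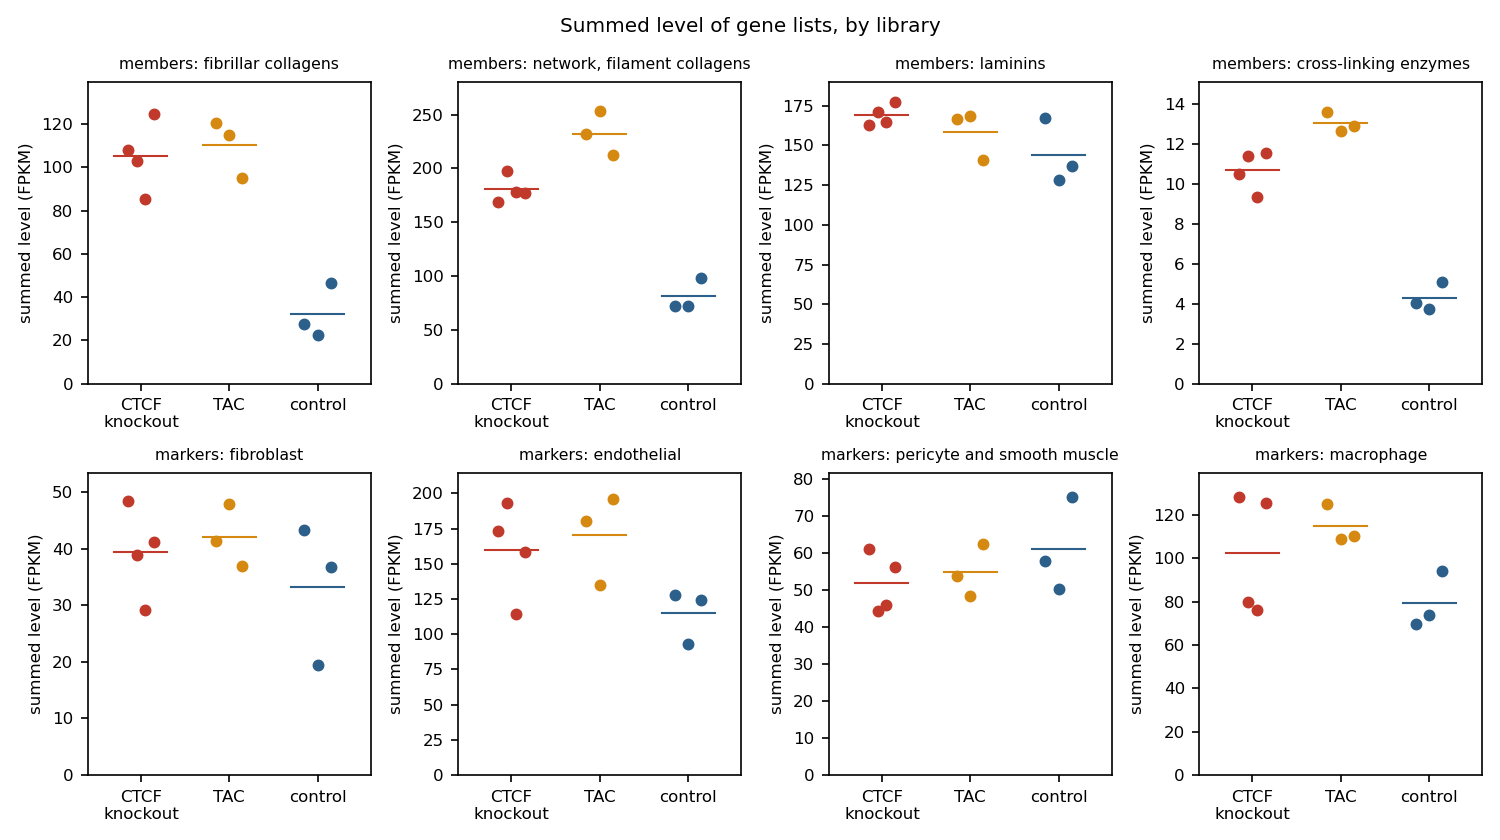
Summed FPKM (y axes, from 0) of 4 groups of scaffold genes (top) and 4 lists of cell type markers (bottom) in every library, with CTCF knockout (4), TAC (3) and control (3) from left to right; points are libraries and bars are means. The fibrillar collagen, network collagen and cross-linking sums of control libraries lie below all others, the laminin, fibroblast and pericyte sums overlap between all groups, and for the endothelial and macrophage lists the TAC libraries lie above control while the knockout libraries overlap control.

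Fibrillar collagens, the chains of interstitial fibres, rose in both comparisons except Col5a3. Of 6 chains tested, 5 rose in the knockout and 5 in TAC, with medians of 1.41 and 1.44 on the log2 scale. Their summed level was 85.2 to 125 FPKM in knockout, 95.3 to 120.4 FPKM in TAC and 22.5 to 46.7 FPKM in control libraries. Col3a1, the type III chain at chr1:45311538-45349706 (mm10), was the most abundant. It had 64.4, 58.5, 50.6 and 75.5 FPKM in CTCF knockout libraries, 71.7, 66.5 and 53.9 FPKM in TAC libraries and 12.4, 11.2 and 27.7 FPKM in control libraries. Control library 3 was the highest control, and the knockout and TAC libraries were all above it. The log2 fold change was 1.90 ± 0.26 (SE, adjusted p = 0.00048) in the knockout and 1.95 ± 0.27 (SE, adjusted p = 0.000921) in TAC.

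Type I collagen, the main fibrillar collagen of the heart, has chains from Col1a1 (chr11:94936224-94953042) and Col1a2 (chr6:4504814-4541543). Col1a1 had 7.92, 10.2, 7.25 and 10.7 FPKM in CTCF knockout libraries, 12.6, 11.0 and 8.08 FPKM in TAC libraries and 2.34, 1.57 and 3.01 FPKM in control libraries. All control libraries lay below the others, and the ratio of mean FPKM was 3.91 for knockout over control and 4.58 for TAC over control. The log2 fold changes were 1.61 ± 0.19 (SE, adjusted p = 0.000207) in the knockout and 1.81 ± 0.20 (SE, adjusted p = 0.000247) in TAC. Col1a2 had 21.8, 19.2, 16.0 and 23.9 FPKM in CTCF knockout libraries, 20.2, 20.9 and 17.8 FPKM in TAC libraries and 7.46, 5.62 and 7.75 FPKM in control libraries, again with no overlap with control. It rose with 1.41 ± 0.14 (SE, adjusted p = 9.07e-05) in the knockout and 1.39 ± 0.15 (SE, adjusted p = 0.000254) in TAC. The ratio of Col1a1 to Col1a2 FPKM was 0.364 to 0.533 in knockout, 0.453 to 0.622 in TAC and 0.280 to 0.389 in control libraries, and that of Col3a1 to Col1a1 was 5.72 to 8.12 in knockout, 5.71 to 6.67 in TAC and 5.29 to 9.20 in control libraries. Both ratios overlap between the knockout and control groups. For Col1a1 to Col1a2, however, every TAC library lay above every control library, a difference that was not tested.

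Type V collagen initiates fibrils. Its chain Col5a1 had 4.36 to 5.72 FPKM in knockout, 4.52 to 6.48 FPKM in TAC and 1.81 to 2.81 FPKM in control libraries. Col5a1 rose with 0.93 (adjusted p = 0.000948) in the knockout and 0.99 (adjusted p = 0.00136) in TAC. Col5a2, its partner chain, had 5.67 to 8.37 FPKM in knockout, 7.32 to 8.54 FPKM in TAC and 1.68 to 2.41 FPKM in control libraries. It rose with 1.41 (adjusted p = 5.69e-05) in the knockout and 1.50 (adjusted p = 9.82e-05) in TAC, and neither gene overlaps with control. Col5a3, a further type V chain, behaved otherwise, with 1.18, 1.36, 1.39 and 1.28 FPKM in CTCF knockout libraries, 2.90, 2.60 and 2.47 FPKM in TAC libraries and 0.894, 0.634 and 2.97 FPKM in control libraries. The knockout libraries lay below the TAC libraries without overlap, and control library 3 lay above all of them. Its log2 fold change was 0.00 ± 0.24 (SE, adjusted p = 0.994) in the knockout, 0.66 ± 0.25 (SE, adjusted p = 0.104) in TAC and -0.67 ± 0.24 (SE, adjusted p = 0.163) for knockout over TAC, none of them called. Without control library 3 it was called higher in TAC than in control (1.05, adjusted p = 0.000807) and lower in the knockout than in TAC (-0.67, adjusted p = 0.0108).

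Fibril-associated collagens sit on the surface of fibrils. Col14a1 had 3.98, 4.61, 2.79 and 4.82 FPKM in CTCF knockout libraries, 3.43, 4.24 and 2.08 FPKM in TAC libraries and 1.73, 0.704 and 1.64 FPKM in control libraries. It rose with 1.11 ± 0.22 (SE, adjusted p = 0.00479) in the knockout and with 0.85 ± 0.24 (SE, adjusted p = 0.0325) in TAC, both without overlap with control. The TAC call was lost without control library 2 (adjusted p = 0.108), TAC library 1 (0.0917) or TAC library 2 (0.112). Its full-length transcript of 6447 nt was not called in the knockout (1.07, adjusted p = 0.0535) or in TAC (0.94, adjusted p = 0.12). That transcript was listed at only 0.000514 FPKM in control library 2. Col16a1 had 2.16 to 2.46 FPKM in knockout, 1.89 to 3.22 FPKM in TAC and 0.647 to 1.04 FPKM in control libraries and rose with 0.80 (adjusted p = 0.00226) in the knockout and 0.85 (adjusted p = 0.00311) in TAC. Col12a1 was under the mean of 1 FPKM needed for testing, with 0.710, 0.733, 1.05 and 0.957 FPKM in CTCF knockout libraries, 1.12, 1.01 and 1.21 FPKM in TAC libraries and 0.114, 0.0732 and 0.129 FPKM in control libraries. Every knockout and TAC value was above every control value, and its ratio of mean FPKM to control was 8.21 in the knockout and 10.6 in TAC. In a fit without the filter on the mean (26349 genes), its log2 fold change was 0.75 in the knockout (adjusted p = 0.00163) and 0.93 in TAC (adjusted p = 0.00155).

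Col4a1 and Col4a2 encode the chains of the most widespread type IV collagen, the network of basement membranes, and were the most abundant collagens in all 3 groups. Col4a1 (chr8:11198423-11312826) had 74.7, 86.6, 81.3 and 76.0 FPKM in CTCF knockout libraries, 99.9, 110.3 and 93.5 FPKM in TAC libraries and 27.6, 28.8 and 40.0 FPKM in control libraries. Col4a2 (chr8:11312805-11449287) had 59.3, 77.9, 68.1 and 65.3 FPKM in CTCF knockout libraries, 98.7, 104 and 90.4 FPKM in TAC libraries and 31.8, 33.2 and 39.0 FPKM in control libraries. For both genes the 3 groups were apart, with TAC highest and control lowest. Col4a1 rose with 1.30 ± 0.13 (SE, adjusted p = 8.5e-05) in the knockout and 1.64 ± 0.14 (SE, adjusted p = 5.3e-05) in TAC. Col4a2 rose with 0.94 ± 0.12 (SE, adjusted p = 0.000275) in the knockout and 1.47 ± 0.12 (SE, adjusted p = 4.81e-05) in TAC.

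The 2 genes lie head to head on opposite strands of chromosome 8, and the annotated first bases are 11312826 for Col4a1 and 11312805 for Col4a2, so that 22 bases belong to both transcripts. That stretch is printed from the RefSeq table for GRCm38.p6, plus strand, chr8:11312797-11312834, with the shared bases in capitals.
Col4a1-Col4a2 start: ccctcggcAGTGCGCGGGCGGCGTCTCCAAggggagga
The pair also moved unevenly. The ratio of Col4a1 to Col4a2 FPKM was 1.11 to 1.26 in knockout, 1.01 to 1.06 in TAC and 0.868 to 1.02 in control libraries, with every knockout library above every TAC and control library. Col4a2 has 2 transcripts of note, a full-length one of 6450 nt and a short one of 921 nt that held on average 16.7% of the gene sum in knockout, 21.5% in TAC and 21.9% in control libraries. Restricted to transcripts of at least 1000 nt, Col4a2 rose as a gene in both comparisons with control too.

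Direct comparison of knockout with TAC libraries gave 0 members higher and 1 member lower with limma, against 1.58% and 1.7% of all genes, and 34 were not called. Every knockout library lay above every TAC library for 1 member (Lamb2), against 8.43% of all genes, and below for 5 (Col5a3, Fbn1, Col4a2, Col8a1 and Col4a1), against 9.64%. At an unadjusted p under 0.05, Lamb2 was higher in the knockout, and Col5a3, Col4a1, Col4a2, Col8a1, Fbn1 and Lox were lower. The share of all genes at that threshold is not given, so these counts cannot be weighed against it. The median log2 fold change was -0.08, against -0.01 over all genes. Col4a2 was the member called, at -0.53 ± 0.12 (SE, adjusted p = 0.0317). That call was lost without any of knockout libraries 1 (0.087), 3 (0.083) and 4 (0.063) or TAC libraries 1 (0.0868), 2 (0.123) and 3 (0.0553), all adjusted p. It was also lost with transcripts of at least 1000 nt (-0.42, adjusted p = 0.0551).

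**Figure D3:**
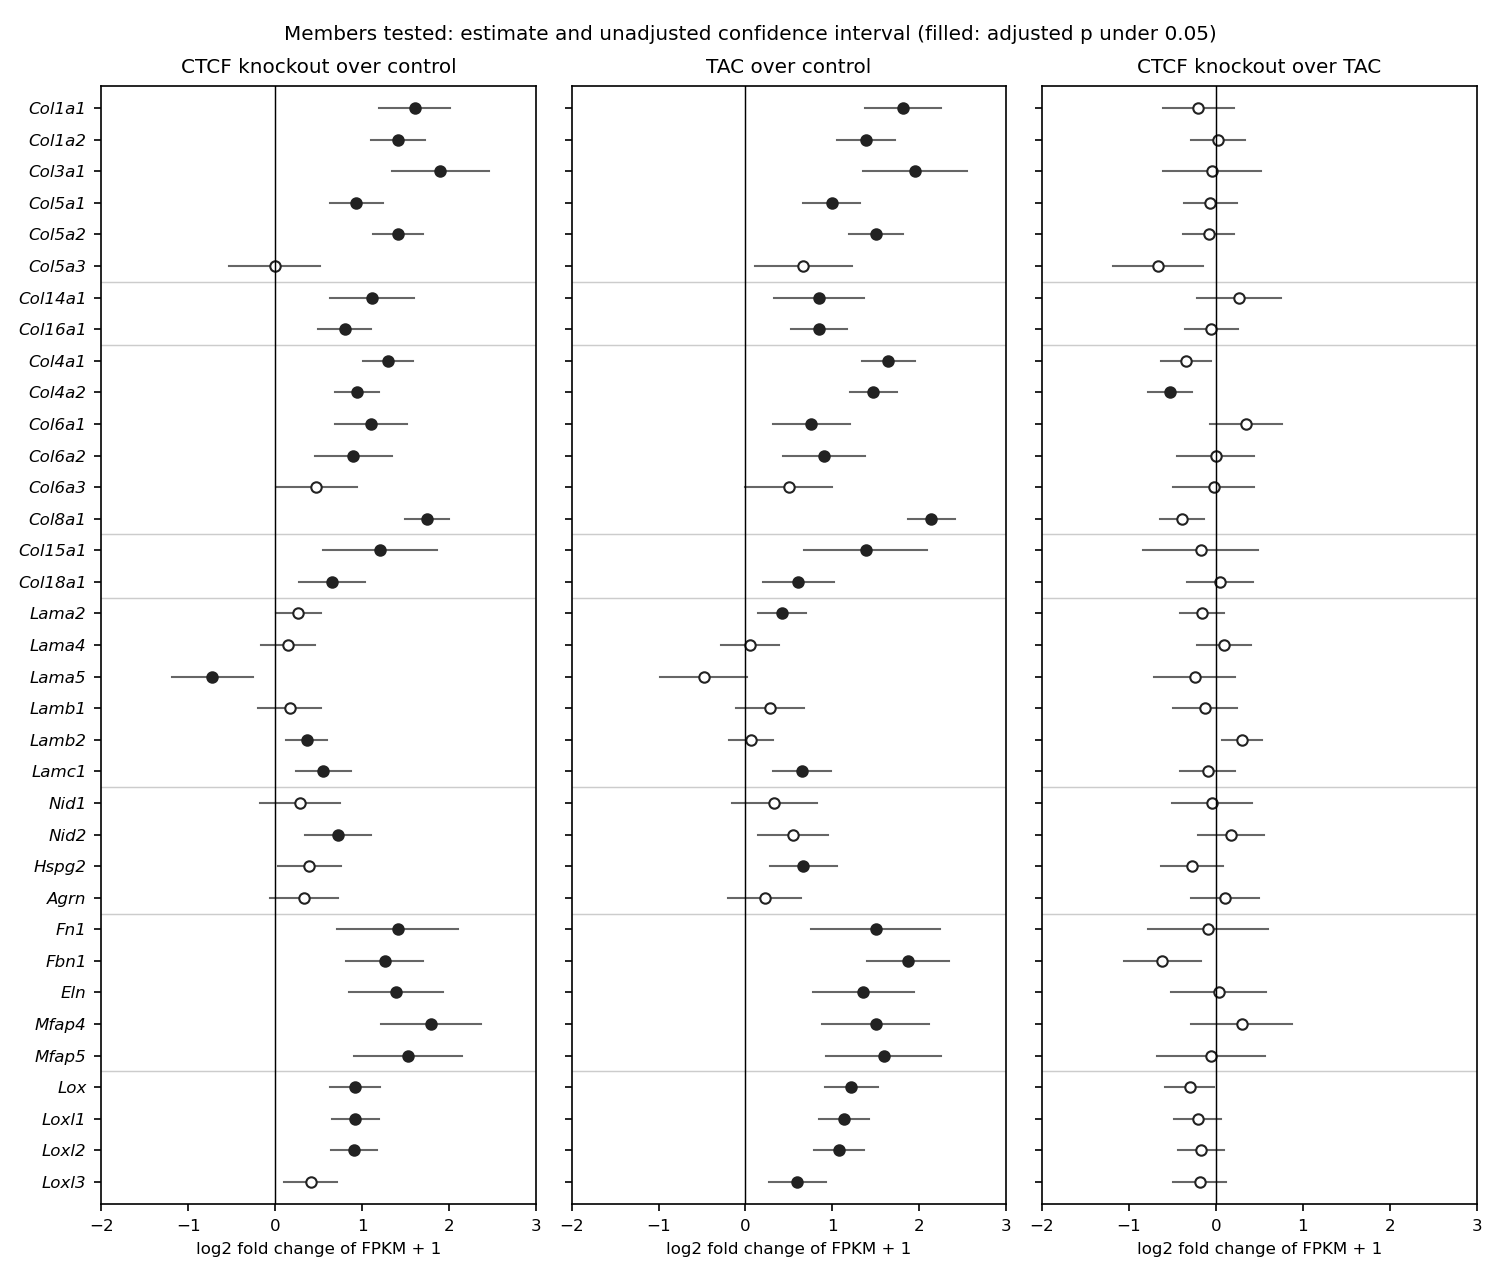
Log2 fold change of FPKM + 1 (x axes) with its unadjusted 95% interval for each of the 35 genes tested, in CTCF knockout over control, TAC over control and CTCF knockout over TAC from left to right; filled points have an adjusted p under 0.05. Filled points lie right of 0 for 25 genes in the first panel and 26 in the second, Lama5 is the filled point left of 0 in the first, and Col4a2 is the filled point in the third.

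Col8a1, a short-chain collagen of vessel walls and subendothelial layers, had the smallest adjusted p among the members in both comparisons with control. It lies at chr16:57624258-57754737 and had 8.28, 7.00, 7.20 and 7.96 FPKM in CTCF knockout libraries, 8.99, 11.2 and 10.7 FPKM in TAC libraries and 1.89, 1.60 and 1.25 FPKM in control libraries. Control libraries lay below all others, and the lowest TAC library was above the highest knockout library. The ratio of mean FPKM was 4.82 in the knockout and 6.53 in TAC. The log2 fold change was 1.74 ± 0.12 (SE, adjusted p = 6.39e-06) in the knockout and 2.14 ± 0.12 (SE, adjusted p = 3.1e-06) in TAC, and -0.39 (adjusted p = 0.0924) for knockout over TAC.

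Type VI collagen forms beaded filaments next to basement membranes. Col6a1 had 14.2, 12.9, 10.4 and 13.8 FPKM in CTCF knockout libraries, 9.67, 11.6 and 8.42 FPKM in TAC libraries and 5.25, 3.79 and 7.84 FPKM in control libraries, and Col6a2 had 7.36 to 10.2 FPKM in knockout, 6.91 to 10.4 FPKM in TAC and 3.02 to 6.53 FPKM in control libraries. No knockout or TAC library overlapped the control libraries for either gene. Col6a1 rose with 1.10 (adjusted p = 0.00225) in the knockout and 0.76 (adjusted p = 0.0273) in TAC, and Col6a2 with 0.90 (adjusted p = 0.00912) and 0.90 (adjusted p = 0.0158). In TAC both calls were lost without control library 2 (adjusted p = 0.0889 and 0.0565), TAC library 1 (0.064 and 0.054) or TAC library 2 (0.0924 and 0.0581), and that of Col6a1 also without control library 1 (0.0644). Col6a3, the longest chain of the trimer, had 3.47, 4.35, 3.45 and 4.15 FPKM in CTCF knockout libraries, 4.54, 5.36 and 2.36 FPKM in TAC libraries and 2.08, 2.00 and 3.58 FPKM in control libraries and was not called in the knockout (0.47, adjusted p = 0.141) or in TAC (0.50, adjusted p = 0.169), but was called in TAC without TAC library 3 (0.0284). The ratio of Col6a1 to Col6a2 was 1.35 to 1.58 in knockout, 0.990 to 1.22 in TAC and 1.20 to 1.34 in control libraries, again higher in every knockout library than elsewhere.

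Col15a1 and Col18a1 encode multiplexins, basement membrane collagens with heparan or chondroitin sulfate chains, and the end of the Col18a1 product is released as endostatin. Col15a1 had 11.0, 12.7, 11.6 and 22.1 FPKM in CTCF knockout libraries, 19.0, 18.0 and 11.3 FPKM in TAC libraries and 4.53, 3.53 and 9.52 FPKM in control libraries, with knockout library 4 well above the other knockout libraries. It rose with 1.21 (adjusted p = 0.0157) in the knockout and 1.38 (adjusted p = 0.0142) in TAC. Col18a1 had 1.72 to 2.35 FPKM in knockout, 1.37 to 2.56 FPKM in TAC and 0.629 to 1.46 FPKM in control libraries and rose with 0.66 (adjusted p = 0.021) and 0.61 (adjusted p = 0.0476), although the lowest TAC library was below the highest control library. These are among the least secure rises. The knockout calls were lost without control library 1 (0.0532 for Col15a1 and 0.0766 for Col18a1, adjusted p) or control library 2 (0.0696 and 0.0785), and that of Col18a1 without knockout library 2 (0.0588). In TAC, Col15a1 lost its call without control library 2 (0.0553), TAC library 1 (0.0536) or TAC library 2 (0.0504), and Col18a1 without any library other than control library 3 and TAC library 2 (0.0584 to 0.16).

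Laminins are trimers of an alpha, a beta and a gamma chain. Of 6 chains, 2 rose in the knockout (Lamb2 and Lamc1) and 1 fell (Lama5), and 2 rose in TAC (Lama2 and Lamc1). The median log2 fold change was 0.22 in the knockout and 0.17 in TAC. Their summed level was 163 to 177 FPKM in knockout, 141 to 168 FPKM in TAC and 128 to 167 FPKM in control libraries, and control library 1 lay inside the knockout range. Whether laminins differ from collagens in the size of change was not tested.

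Lamb2, the beta chain of mature muscle and vessel laminins, was the most abundant of the 37 genes over all libraries. It lies at chr9:108479736-108490530 and had 92.1, 85.6, 95.0 and 92.6 FPKM in CTCF knockout libraries, 77.4, 79.9 and 65.1 FPKM in TAC libraries and 78.7, 63.6 and 70.5 FPKM in control libraries. In this gene sum all knockout libraries lay above all TAC and control libraries. It rose with 0.36 ± 0.11 (SE, adjusted p = 0.0325) in the knockout and was not called in TAC (0.06, adjusted p = 0.76) or for knockout over TAC (0.30, adjusted p = 0.16). The knockout call was lost without control library 2 (0.126) or 3 (0.0793) or knockout library 1 (0.0678), 3 (0.0776) or 4 (0.0606), all adjusted p.

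Lamc1, the gamma chain shared by most laminins, had 18.4, 23.9, 19.4 and 22.1 FPKM in CTCF knockout libraries, 24.0, 24.3 and 19.1 FPKM in TAC libraries and 17.5, 12.3 and 12.4 FPKM in control libraries. It rose with 0.55 (adjusted p = 0.0189) in the knockout and 0.65 (adjusted p = 0.0156) in TAC, without overlap with control. Its knockout call was lost without knockout library 2 (0.0562) or control library 2 (0.0767) or 3 (0.0709). Its TAC call was lost without control library 2 (0.0583) or 3 (0.0541) or TAC library 1 (0.054) or 2 (0.0543), all adjusted p.

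Lama2, the alpha chain of the myocyte basement membrane, whose loss causes muscular dystrophy, had 20.8, 23.2, 21.5 and 27.5 FPKM in CTCF knockout libraries, 27.8, 25.9 and 24.1 FPKM in TAC libraries and 21.1, 19.6 and 16.7 FPKM in control libraries. The TAC libraries lay above the control libraries, and the knockout libraries overlapped both. It rose in TAC (0.42, adjusted p = 0.0414) and was not called in the knockout (0.27, adjusted p = 0.134). With transcripts of at least 1000 nt alone it was not called in TAC (0.32, adjusted p = 0.0922). Nor was it with sex as a term (0.0813), quantile normalization (0.0804), no filter on the mean (0.0802) or the 2 groups alone (0.0713). Its full-length transcript of 9614 nt was not called in TAC (0.26, adjusted p = 0.223), and there TAC and control libraries overlap. The TAC call was lost without any of 7 libraries, namely control 2 (0.0781) and 3 (0.135), TAC 1 (0.121), 2 (0.0905) and 3 (0.0582), and knockout 2 (0.0589) and 3 (0.0543), all adjusted p. Lama4, an alpha chain of capillary basement membranes, had 8.91 to 11.8 FPKM in knockout, 7.79 to 10.8 FPKM in TAC and 7.15 to 9.89 FPKM in control libraries, with log2 fold changes of 0.15 (adjusted p = 0.507) and 0.05 (adjusted p = 0.857). Lamb1, the more widespread beta chain, had 10.4 to 14.1 FPKM in knockout, 12.2 to 13.9 FPKM in TAC and 7.19 to 12.4 FPKM in control libraries, with 0.17 (adjusted p = 0.529) and 0.29 (adjusted p = 0.312). The 3 groups overlap for both.

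Lama5, a widespread alpha chain of vessel and epithelial basement membranes, was the member that fell. It lies at chr2:180176373-180225859 and had 11.7, 14.8, 9.27 and 11.8 FPKM in CTCF knockout libraries, 14.7, 17.3 and 11.0 FPKM in TAC libraries and 28.8, 18.3 and 15.2 FPKM in control libraries. Control library 1 was the highest, and every knockout library lay below every control library, whereas TAC libraries overlapped both groups. The log2 fold change was -0.72 ± 0.21 (SE, adjusted p = 0.0335) in the knockout and -0.48 ± 0.23 (SE, adjusted p = 0.185) in TAC. The knockout call was lost without control library 1 (-0.47, adjusted p = 0.123) or 2 (0.0605) or knockout library 1 (0.0632), 3 (0.0846) or 4 (0.0628). With transcripts of at least 1000 nt alone it was -0.64 (adjusted p = 0.061). At the level of transcripts, a short one of 734 nt was called lower in the knockout (-0.66, adjusted p = 0.0449) and in TAC (-0.93, adjusted p = 0.0204), and the full-length one of 11388 nt was not (-0.65, adjusted p = 0.11, and -0.30, adjusted p = 0.516).

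Nidogens tie laminin to type IV collagen. Nid1 had 6.80 to 13.2 FPKM in knockout, 9.84 to 11.2 FPKM in TAC and 5.89 to 11.2 FPKM in control libraries, with log2 fold changes of 0.29 (adjusted p = 0.368) and 0.33 (adjusted p = 0.354) in knockout and TAC. Nid2 had 2.08, 3.01, 1.94 and 2.65 FPKM in CTCF knockout libraries, 2.74, 1.27 and 2.20 FPKM in TAC libraries and 1.29, 0.890 and 1.02 FPKM in control libraries. It rose in the knockout (0.72, adjusted p = 0.0133), with no overlap with control, but not without control library 2 (0.0518). In TAC it was not called (0.54, adjusted p = 0.0702), except without TAC library 2 (0.0183). The ratio of Nid1 to Nid2 was 3.38 to 5.45 in knockout, 3.77 to 8.79 in TAC and 6.62 to 8.64 in control libraries, so knockout libraries lay below control libraries. Nid2 shares 386 exonic bases on opposite strands with Rtraf, a more abundant gene, and the strand setting of the counting is not given in the sources used here, so the Nid2 level is uncertain.

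Hspg2 encodes perlecan, the heparan sulfate proteoglycan of basement membranes, and had 25.3, 34.7, 29.0 and 38.7 FPKM in CTCF knockout libraries, 45.1, 38.7 and 32.1 FPKM in TAC libraries and 27.5, 24.3 and 20.1 FPKM in control libraries. TAC libraries lay above control libraries and knockout libraries overlapped both. It rose in TAC (0.67, adjusted p = 0.0256) and was not called in the knockout (0.39, adjusted p = 0.116). The TAC call was lost without control library 2 (0.0586) or 3 (0.0878) or TAC library 1 (0.0919) or 2 (0.0658). Sex as a term (0.0535), quantile normalization (0.0532) or no filter on the mean (0.0789) removed it as well, all adjusted p. Agrn encodes agrin, a proteoglycan that binds dystroglycan, and had 5.62 to 8.82 FPKM in knockout, 5.77 to 7.09 FPKM in TAC and 3.82 to 6.94 FPKM in control libraries, with 0.33 (adjusted p = 0.222) and 0.22 (adjusted p = 0.476). The groups overlap for Agrn in both comparisons.

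Fibronectin and the elastic fibre genes rose in both comparisons wherever they were tested, 5 of 5 in each, with medians of 1.41 in the knockout and 1.50 in TAC. Fn1, which encodes the cell-binding glycoprotein fibronectin, lies at chr1:71585520-71653200 and had 8.56, 15.5, 6.95 and 13.5 FPKM in CTCF knockout libraries, 15.3, 6.22 and 15.0 FPKM in TAC libraries and 4.77, 2.80 and 2.79 FPKM in control libraries. All control libraries lay below the others, but the knockout and TAC libraries spread more than 2-fold. The log2 fold change was 1.41 ± 0.32 (SE, adjusted p = 0.00947) in the knockout and 1.50 ± 0.34 (SE, adjusted p = 0.0123) in TAC, where the call was lost once genes of any mean level were kept (adjusted p = 0.0591).

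Fibronectin RNA is spliced to keep or skip 2 exons, EDA and EDB, each a whole fibronectin repeat, and EDA is known from wound repair. Both are shown because the transcripts were counted by their presence. They lie on the minus strand of chromosome 1, at chr1:71603660-71603929 (270 bases) and chr1:71613763-71614035 (273 bases) of GRCm38, and are printed from GENCODE M21 transcripts.
Fn1 EDA exon: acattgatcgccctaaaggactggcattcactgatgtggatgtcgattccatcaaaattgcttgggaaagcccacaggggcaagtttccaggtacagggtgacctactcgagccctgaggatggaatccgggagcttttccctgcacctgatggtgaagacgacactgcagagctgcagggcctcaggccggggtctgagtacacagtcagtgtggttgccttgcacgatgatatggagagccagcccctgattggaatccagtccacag
Fn1 EDB exon: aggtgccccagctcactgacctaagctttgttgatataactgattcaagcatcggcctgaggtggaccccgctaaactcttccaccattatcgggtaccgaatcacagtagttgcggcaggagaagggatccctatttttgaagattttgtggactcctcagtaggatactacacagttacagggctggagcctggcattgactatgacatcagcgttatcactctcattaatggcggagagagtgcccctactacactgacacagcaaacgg
Of 7 full-length Fn1 transcripts, 4 hold EDA and 1 holds EDB. Transcripts with EDA summed to 0.618, 1.81, 0.967 and 1.55 FPKM in knockout, 2.66, 0.917 and 1.86 FPKM in TAC and 0.556, 0.597 and 0.417 FPKM in control libraries. Every knockout and TAC library lay above every control library. Transcripts without EDA averaged 6.53 ± 2.41, 7.23 ± 1.91 and 1.74 ± 0.374 FPKM (SD) in knockout, TAC and control libraries. The share with EDA was 10.9% to 19.7% in knockout, 15.3% to 23.5% in TAC and 19.9% to 29.7% in control libraries. Forms with and without EDA were thus both higher than in control. The EDA share of knockout libraries lay below that of control libraries only narrowly, with a highest of 19.7% against a lowest of 19.9%. Transcripts with EDB took 9.87%, 9.47%, 6.02% and 8.53% in knockout, 5.58%, 3.69% and 9.19% in TAC, and 2.73%, 0% and 5.46% in control libraries. For EDB every knockout share was above every control share. These shares are estimates of Cufflinks for forms that share most of their sequence, and no test was made of them.

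**Figure D4:**
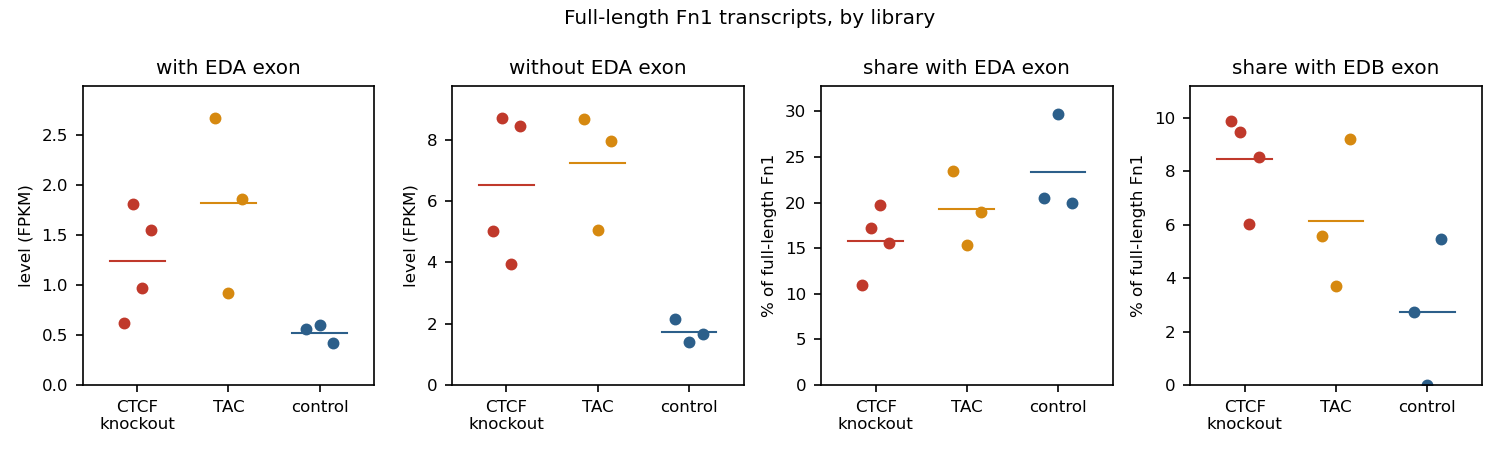
Summed FPKM of full-length Fn1 transcripts with and without the EDA exon, and the percent of full-length Fn1 FPKM in transcripts with EDA or EDB (y axes, from 0), in CTCF knockout (4), TAC (3) and control (3) libraries from left to right; points are libraries and bars are means. The lowest knockout and TAC libraries lie above the highest control library in both panels of levels, whereas the EDA share is highest in a control library at 29.7%.

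Fbn1 encodes fibrillin, the backbone of microfibrils, and had 6.99, 11.1, 7.98 and 10.4 FPKM in CTCF knockout libraries, 15.2, 15.8 and 12.1 FPKM in TAC libraries and 3.18, 2.10 and 4.61 FPKM in control libraries. TAC libraries were all above knockout libraries, and those were all above control. It rose with 1.26 ± 0.20 (SE, adjusted p = 0.00143) in the knockout and 1.87 ± 0.22 (SE, adjusted p = 0.000307) in TAC, while knockout over TAC was not called (-0.62, adjusted p = 0.128). Eln, elastin, had 4.28, 9.20, 4.59 and 4.70 FPKM in CTCF knockout libraries, 4.96, 6.90 and 4.29 FPKM in TAC libraries and 1.54, 0.829 and 2.19 FPKM in control libraries. Knockout library 2 was about 2 times the others of its group, and no knockout or TAC library overlapped control. It rose with 1.39 (adjusted p = 0.00281) and 1.36 (adjusted p = 0.00632).

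Mfap4 and Mfap5 encode microfibril-associated proteins of elastic fibres. Mfap4 had 6.53, 4.40, 4.61 and 6.10 FPKM in CTCF knockout libraries, 3.57, 7.47 and 2.57 FPKM in TAC libraries and 1.25, 0.411 and 0.936 FPKM in control libraries. Its ratio of mean FPKM to control was 6.24 in the knockout and 5.24 in TAC, and the groups do not overlap with control. The log2 fold changes were 1.79 (adjusted p = 0.000853) and 1.50 (adjusted p = 0.00503). Mfap5 had 18.9, 17.3, 10.2 and 12.9 FPKM in CTCF knockout libraries, 11.5, 20.8 and 14.2 FPKM in TAC libraries and 5.21, 2.35 and 6.36 FPKM in control libraries and rose with 1.53 (adjusted p = 0.0034) and 1.59 (adjusted p = 0.0055). Mfap2, a related microfibril protein, had 0.296 to 0.402 FPKM in knockout, 0.316 to 0.480 FPKM in TAC and 0.127 to 0.562 FPKM in control libraries, too low for testing. In the fit without the filter it was not called in the knockout (0.04, adjusted p = 0.865) or TAC (0.10, adjusted p = 0.695).

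Lysyl oxidases oxidise lysines of collagen and elastin so that cross-links can form. All 4 measured stood above control without overlap in both groups, and 3 rose in the knockout and 4 in TAC. Their summed level was 9.35 to 11.6 FPKM in knockout, 12.6 to 13.6 FPKM in TAC and 3.75 to 5.09 FPKM in control libraries, with the 3 groups apart. Loxl1, which acts on elastic fibres, was the most abundant and had 4.83, 5.19, 4.84 and 6.03 FPKM in CTCF knockout libraries, 6.78, 5.99 and 5.78 FPKM in TAC libraries and 1.96, 2.02 and 2.94 FPKM in control libraries. It rose with 0.92 ± 0.12 (SE, adjusted p = 0.000463) in the knockout and 1.13 ± 0.13 (SE, adjusted p = 0.000329) in TAC. Lox had 1.40, 1.89, 1.11 and 1.57 FPKM in CTCF knockout libraries, 1.77, 1.96 and 2.45 FPKM in TAC libraries and 0.364, 0.246 and 0.319 FPKM in control libraries. Its log2 fold change was 0.92 (adjusted p = 0.000667) in the knockout and 1.22 (adjusted p = 0.000299) in TAC, whereas its ratio of mean FPKM was 4.81 and 6.65, since the log2(FPKM + 1) scale compresses such low values.

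Loxl2, known for cross-linking of type IV collagen and for a part in cardiac fibrosis, had 3.10, 3.12, 2.47 and 2.77 FPKM in CTCF knockout libraries, 3.34, 3.80 and 2.94 FPKM in TAC libraries and 1.12, 0.792 and 1.30 FPKM in control libraries. It rose with 0.90 (adjusted p = 0.000477) in the knockout and 1.08 (adjusted p = 0.000391) in TAC. Loxl3 had 1.19, 1.21, 0.932 and 1.19 FPKM in CTCF knockout libraries, 1.74, 0.898 and 1.72 FPKM in TAC libraries and 0.575, 0.693 and 0.536 FPKM in control libraries. It rose in TAC (0.60, adjusted p = 0.0207), though not without control library 1 (0.0509) or 3 (0.0603), with the 2 groups alone (0.0565) or with no filter on the mean (0.0572). It just missed the threshold in the knockout (0.41, adjusted p = 0.0605), where it passed without TAC library 2 (0.0223). There it also passed with sex as a term (0.0379), the 2 groups alone (0.0361), no rescaling (0.0408), a pseudocount of 0.1 (0.0409) or no variance trend (0.0485). Loxl3 shares 535 exonic bases (12.8% of its exons) with Htra2 on the opposite strand. Htra2 averaged 6.44 FPKM over all libraries, against 1.07 FPKM for Loxl3. Loxl2 shares 301 (5.57%) with Gm27177 on the opposite strand, which averaged 6.45 FPKM, against 2.48 FPKM for Loxl2. Fbn1 shares 2442 (20.1%) with Gm9913 on the opposite strand, which averaged only 0.56 FPKM, against 8.96 FPKM for Fbn1. The levels of Loxl3 and Loxl2 are thus uncertain, and that of Fbn1 less so. The size of this effect was not tested.

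Calls among genes that fold and process collagen were all upward in the knockout and went in both directions in TAC. Of 23 folding and processing genes tested (27 listed), 8 rose and 0 fell in the knockout with limma, against 10.6% and 10.2% of all genes. At an unadjusted p under 0.05, 2 were lower in the knockout. In TAC 5 rose and 2 fell, against 8.08% and 7.37%. The median log2 fold change was 0.12 and 0.24. Sparc, a collagen-binding matricellular protein, had 77.2, 69.3, 54.6 and 69.3 FPKM in CTCF knockout libraries, 69.7, 67.3 and 62.2 FPKM in TAC libraries and 23.5, 24.6 and 31.7 FPKM in control libraries. Its control libraries lay below all others (log2 fold changes 1.31, adjusted p = 9.77e-05 in the knockout and 1.30, adjusted p = 0.000255 in TAC).

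The procollagen N-proteinase Adamts2 rose with 0.79 (adjusted p = 0.0016) in the knockout and 0.80 (adjusted p = 0.00296) in TAC. Pcolce, the enhancer of C-propeptide cleavage, rose with 0.73 (adjusted p = 0.00414) and 0.71 (adjusted p = 0.00944). The C-proteinase Bmp1 rose in the knockout (0.49, adjusted p = 0.00749) and was not called in TAC (0.24, adjusted p = 0.171). The genes that fell in TAC were P3h4 (-0.96, adjusted p = 0.00498) and Fkbp10 (-0.53, adjusted p = 0.0255), both of collagen modification in the endoplasmic reticulum, and neither was called in the knockout (-0.11, adjusted p = 0.707 and -0.06, adjusted p = 0.805). Serpinh1, the collagen chaperone, had 48.4, 45.2, 52.2 and 47.2 FPKM in CTCF knockout libraries, 59.1, 52.9 and 37.7 FPKM in TAC libraries and 39.4, 66.5 and 78.1 FPKM in control libraries and was not called in either.

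Small leucine-rich proteoglycans bind collagen fibrils and guide their spacing. Of 7 tested (10 listed), 1 rose and 1 fell in the knockout, against 10.6% and 10.2% of all genes. In TAC 2 rose and 1 fell, against 8.08% and 7.37%. With so few genes tested, these counts say little about the list as a whole. Biglycan, Bgn, had 50.4, 52.3, 35.2 and 46.9 FPKM in CTCF knockout libraries, 52.6, 48.9 and 43.3 FPKM in TAC libraries and 14.4, 11.2 and 14.8 FPKM in control libraries and rose with 1.70 (adjusted p = 3.64e-05) and 1.77 (adjusted p = 6.71e-05). Osteoglycin, Ogn, had 14.3, 10.2, 11.0 and 15.8 FPKM in CTCF knockout libraries, 16.3, 16.9 and 16.3 FPKM in TAC libraries and 38.2, 36.5 and 47.8 FPKM in control libraries and fell with -1.61 (adjusted p = 5e-05) and -1.25 (adjusted p = 0.000499). The groups do not overlap with control for either gene. Decorin, Dcn, had 90.2, 63.1, 49.8 and 73.9 FPKM in CTCF knockout libraries, 65.5, 70.8 and 70.5 FPKM in TAC libraries and 82.7, 43.5 and 72.7 FPKM in control libraries, and its groups overlap (0.08, adjusted p = 0.836 and 0.10, adjusted p = 0.813). Prelp was the other gene that rose in TAC (0.67, adjusted p = 0.0428).

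Among 17 matrix receptors tested (23 listed), 6 rose and 2 fell in the knockout, against 10.6% and 10.2% of all genes. In TAC 5 rose and 0 fell, against 8.08% and 7.37%, and 1 was lower at an unadjusted p under 0.05. The collagen receptor kinase Ddr1 had 11.2, 11.6, 14.8 and 12.1 FPKM in CTCF knockout libraries, 9.95, 8.79 and 8.39 FPKM in TAC libraries and 5.83, 5.23 and 4.97 FPKM in control libraries and rose with 1.08 (adjusted p = 0.000105) and 0.66 (adjusted p = 0.00404). The integrin chain Itga9 rose with 0.92 (adjusted p = 0.00064) and 1.27 (adjusted p = 0.000231), and Itgb5 with 0.59 (adjusted p = 0.00298) and 0.42 (adjusted p = 0.0308). The laminin-binding integrin chain Itga7 had 31.1, 28.1, 34.8 and 29.0 FPKM in CTCF knockout libraries, 40.5, 45.0 and 45.3 FPKM in TAC libraries and 39.6, 44.5 and 39.9 FPKM in control libraries and fell in the knockout (-0.42, adjusted p = 0.0132), below TAC as well (-0.49, adjusted p = 0.0247). Itga6, another laminin-binding chain, fell in the knockout (-0.80, adjusted p = 0.000328), but with transcripts of at least 1000 nt alone its sign turned (0.49, adjusted p = 0.0431), so its direction depends on which transcripts are summed.

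The other collagens and scaffold genes were mostly too low to test, 31 of 44. Of the 13 tested, 4 rose and 2 fell in the knockout, with the same counts in TAC. The shares over all genes were 10.6% and 10.2% in the knockout and 8.08% and 7.37% in TAC. Fbln2, an elastic fibre and basement membrane protein, rose with 0.92 (adjusted p = 0.00544) in the knockout and 1.29 (adjusted p = 0.00168) in TAC, and Col4a5, a minor type IV chain, with 0.46 (adjusted p = 0.00606) and 0.59 (adjusted p = 0.00301). Emilin2 had 5.53, 5.43, 5.62 and 5.12 FPKM in CTCF knockout libraries, 4.40, 5.28 and 3.20 FPKM in TAC libraries and 14.1, 12.0 and 10.7 FPKM in control libraries and fell with -1.04 (adjusted p = 0.000415) and -1.34 (adjusted p = 0.000231), and its relative Emilin1 rose (0.79, adjusted p = 0.0144 and 0.82, adjusted p = 0.0208). Lamb3, a laminin chain of epithelia, fell with -0.58 (adjusted p = 0.00349) and -0.59 (adjusted p = 0.00661).

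The 4 most abundant members, Col4a1, Col4a2, Lamb2 and Col3a1, held 48.9% to 55.2% of the summed level of the 37 genes in knockout, 51.4% to 52.4% in TAC and 44.0% to 50.5% in control libraries. At the level of transcripts, 52 transcripts of 32 members were tested among 17685. Of these, 24 rose and 1 fell in the knockout, against 7.12% and 7.53% of all transcripts, and 25 rose and 1 fell in TAC, against 5.66% and 4.43%. For knockout over TAC, 0 rose and 0 fell with limma, against 0.385% and 0.571%, and 3 were higher and 6 lower at an unadjusted p under 0.05. Short forms hold part of some gene sums. For Col3a1 the full-length transcript of 5564 nt held on average 60.0% of the sum in knockout, 58.3% in TAC and 58.5% in control libraries. It rose by itself with 1.89 in the knockout (adjusted p = 0.00239) and 1.89 in TAC (adjusted p = 0.00455).

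Sequence before the start of transcription is shown for 3 members: Col3a1 with the largest log2(FPKM + 1) difference in the knockout (by ratio of mean FPKM, at 3.64, it is below Col12a1, Mfap4, Col8a1 and Lox), Col8a1 with the smallest adjusted p, and Lama5, which fell. Each line gives the 150 bases before the RefSeq start on the gene's own strand (GRCm38.p6), at chr1:45311388-45311537 on the plus strand, chr16:57754738-57754887 on the minus strand and chr2:180225860-180226009 on the minus strand.
Col3a1: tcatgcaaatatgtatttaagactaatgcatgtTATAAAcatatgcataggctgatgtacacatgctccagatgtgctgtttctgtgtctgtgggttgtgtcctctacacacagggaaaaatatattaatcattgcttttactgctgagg
Col8a1: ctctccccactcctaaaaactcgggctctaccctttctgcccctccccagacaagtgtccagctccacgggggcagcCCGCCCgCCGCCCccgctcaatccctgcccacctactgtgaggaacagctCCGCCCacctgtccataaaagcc
Lama5: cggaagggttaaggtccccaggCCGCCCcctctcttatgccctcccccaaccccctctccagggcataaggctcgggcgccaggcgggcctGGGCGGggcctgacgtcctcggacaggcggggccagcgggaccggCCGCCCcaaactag
Capitals mark the letters TATAAA, the letters CCAAT and the letters GGGCGG, or their reverse complements, wherever they stand in the line. The motifs do not overlap in letters. Each motif was counted once for a gene if it was present on either strand. A RefSeq window of 250 bases before to 50 after the start was found for 22 of the 37 members. TATAAA was in the window of 1 of these (Col3a1, 4.55%), against 14.2% of 27025 genes. CCAAT was in 8 (36.4%), against 37.9%, and GGGCGG in 17 (77.3%), against 35.9%. A match is a description of these letters and does not show a bound site.

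Members also lie near each other in the genome. Col3a1 and Col5a2 are neighbours on chromosome 1, with 24614 bases between them, and both rose in knockout and TAC. On chromosome 10, Col6a2 and Col6a1 are 85161 bases apart and Col18a1 lies 326009 bases beyond Col6a1, and all 3 rose in both comparisons. Most members rose wherever they lie, 25 of the 35 tested in the knockout and 26 in TAC. An effect of position was not tested. The deposited confidence bounds of Cufflinks for the main transcripts span, as a share of the level, 6.21% to 15.1% to either side for Col1a1, 4.36% to 5.14% for Col4a1, 4.70% to 17.1% for Col8a1 and 8.07% to 16.3% for Loxl1 over the 10 libraries. They describe the error of estimation within a library and not the spread between mice.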

How the data were processed

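RNA of isolated myocytes was sequenced with a stranded kit after removal of ribosomal RNA, per the labels' protocols, although the labels name polyA RNA as the molecule. The files, as deposited, give other values inside a text column, an FPKM for each of 109869 transcripts with its confidence bounds. Per the submitters' processing notes, TopHat2 2.1.0, Bowtie2, Cufflinks 2.2.1 and Cuffdiff and the build mm10 were used. The strand setting is not given in the sources used here.

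Transcript FPKM was summed by gene ID. Left out were 7781 gene IDs whose transcripts are all shorter than 300 nt and 22 with an FPKM of 0 in at least 1 library beside a median of at least 100 in the others. A median-of-ratios factor (0.912 to 1.10) rescaled each library. Genes with a mean of at least 1 FPKM (11358) were compared as log2(FPKM + 1) with limma 3.58.1 in R 4.3.3, all 10 libraries in 1 fit with a variance trend. P-values are two-sided, adjusted over all tested genes by Benjamini and Hochberg, and called under 0.05. The fit was also run on simulated data with noise independent between genes and libraries. That run cannot show how calls behave where a whole library deviates. Tools for read counts were not used. Sums, ratios, Fn1 exons and motifs were computed with Python 3.11.15 and pandas 2.3.3. Replicates are separate mice, and confidence intervals in the plot of fold changes are unadjusted. Intervals and bounds cover the error each describes, and no counting error was computed.

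The members, lists and comparisons were chosen with earlier results of these data known. Text names all 37 members, and of each pathway list up to 4 genes by adjusted p in the knockout with any called the other way; Serpinh1, Dcn, Prelp, Emilin1 and the marker genes named were added to state counts or after their values were seen. Alternatives were other pseudocounts (0.1 and 0.5), filters (none, or a mean of at least 5 FPKM), scalings (none, quantile), the 2 groups alone, a replicate block, sex as a term, no variance trend, transcripts of at least 300 or, added after the data were seen, 1000 nt, and leaving out each library.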

Additional observations from a re-analysis of the deposited data

Results flagged for a closer look

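Within the 4 knockout libraries, 35 members were examined for a library far from the others, which chance gives in about 1 in 20 groups. Col15a1 had 22.1 FPKM in knockout library 4, where the next library had 12.7 FPKM. Lama4 had 11.8 FPKM in the same library, with 9.36 FPKM next to it. Eln had 9.20 FPKM in knockout library 2, with 4.70 FPKM next to it. Loxl3 had 0.932 FPKM in knockout library 3, below the next at 1.19 FPKM. Groups of 3 libraries were not examined in this way.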

How the results depend on the processing

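Over 22 alternatives, 20 of the 25 rises in the knockout and 16 of the 26 in TAC were called wherever the gene was tested, and no called member changed direction. The knockout count of 25 lay between 15 (a mean of at least 5 FPKM, which tests fewer members) and 28 (no rescaling), and between 20 and 26 when a library was left out. The TAC count of 26 was 16 with a mean of at least 5 FPKM, 18 with no filter (Fn1 and 8 others lost their call), 21 with the 2 groups alone and 27 with no rescaling, and 17 (without TAC library 1) to 25 when a library was left out. The member that fell in the knockout (1, Lama5) was lost (0) with no filter on the mean and with transcripts of at least 1000 nt, and the count was 0 to 1 when a library was left out. The count lower in the knockout than in TAC (1, Col4a2) was 0 with no filter, no rescaling, quantile normalization, a replicate block or transcripts of at least 1000 nt, 2 with the 2 groups alone, and 0 to 2 when a library was left out; the cause was not tested.

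Same-numbered libraries showed no clear tendency to deviate together. The median correlation was 0.0417 over 9 pairs (-0.359 to 0.327) and 0.0146 over 24 other pairs (-0.345 to 0.462). With so few and such scattered pairs, this cannot settle whether the numbers pair the mice. With a replicate block, 22 members rose in the knockout and 24 in TAC. Beyond the members, Itga6 turned with transcripts of at least 1000 nt, to 0.49 (adjusted p = 0.0431) in the knockout and 0.60 (adjusted p = 0.03) in TAC, from -0.80 and -0.31; the cause was not tested. Read counts per gene are not used here, which limits what can be said of genes near 1 FPKM.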
